A study of Mus musculus with 2 samples.

Results

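Cluster 4 of the hepatic CD8αβ T cells held 508 cells. Its members were the cells that the deposited annotation calls CD8αβ T cells and places in cluster 4 of the joined clustering at resolution 1.2. They made up 508 of 1839 CD8αβ T cells and 508 of 11929 liver immune cells in the filtered table. The label given to this cluster is naive CD8αβ T cells, with Ccr7, Lef1, Dapl1, Igfbp4 and Actn1 as its markers.

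Naive CD8 T cells leave the thymus, recirculate through lymph nodes and stay at rest until they meet antigen. The chemokine receptor Ccr7 guides them into lymph nodes, and the transcription factors Lef1 and Tcf7 keep the resting program. TGF-β acts on T cells through a receptor of the Tgfbr1 and Tgfbr2 chains and Smad proteins, restrains their activation, and supports expression of CD103, the integrin chain encoded by Itgae that binds E-cadherin on epithelium. CD44, a hyaluronan receptor, and CD122, the β chain of the IL-2 and IL-15 receptor encoded by Il2rb, are low on resting naive CD8 T cells and high on memory CD8 T cells.

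The study captured CD45+ cells from livers of C57BL/6 mice, and counted transcripts and 49 antibody tags of the same cells. In TG mice the mouse CD4 promoter drives dnTGFβRII, a human type II receptor for TGF-β in a dominant negative form, in CD4 and CD8 T cells, and these mice model the liver disease primary biliary cholangitis. WT mice carry neither this transgene nor a knockout named in the labels. TG cells shared a capture library with cells of IFN-γ ARE-Del-/- mice, and WT cells shared the other with cells of P40-/-IL-2Ra-/- mice; only cells named TG or WT in the annotation were used. The labels give an age of 10 weeks for both pools, whereas the methods give a slightly younger age, and the number of mice was not given in the sources used here.

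Each genotype had 1 library, so the genotype cannot be told apart from the capture, and no test between genotypes was possible. Intervals are 95% intervals of counting error, which leave out the variation between mice, captures and cells. Cluster 4 held 145 TG cells with 721986 UMIs (unique molecular identifiers, 1 for each captured transcript) and 363 WT cells with 1048811 UMIs. The median was 4961 UMIs in a TG cell and 2764 in a WT cell, and the median mitochondrial share was 6.88% and 7.82%. No cell barcode occurred in both the TG and the WT cells of cluster 4, and 6 barcodes of cluster 4 also occurred among cells of the other genotype. Levels are counts per 1000000 UMIs of the summed cells (CPM), and a ratio is the log2 of TG over WT unless another pair is named.

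Cluster 4 was a smaller part of CD8αβ T cells in TG than in WT. It held 145 of 1020 TG CD8αβ cells, or 14.2% (12.1 to 16.5, Clopper-Pearson), and 363 of 819 WT CD8αβ cells, or 44.3% (40.9 to 47.8). The difference of TG minus WT was -30.1 percentage points (-34.1 to -26.0, Newcombe). It was the most numerous of the 6 CD8αβ clusters in WT and the fourth in TG, after clusters 7, 12 and 13. Of all T cells it was 6.80% in TG and 8.70% in WT, a narrower gap over a denominator that holds the CD4 T cells.

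The markers named with the label were higher in cluster 4 than in the other CD8αβ clusters together in both genotypes, though Igfbp4 was at a low level in TG. The clusters were drawn from these same cells, so this comparison describes the cluster and is not evidence for it. Ccr7 stood at 204 CPM (TG) and 258 CPM (WT) in cluster 4, against 41.3 and 45.6 CPM in the other CD8αβ cells. Lef1 stood at 400.3 CPM (TG) and 588 CPM (WT), against 104 and 173 CPM elsewhere. Actn1, which encodes the actin crosslinker α-actinin 1, stood at 517 and 666 CPM, against 89.9 and 165 CPM elsewhere. Dapl1 stood at 148 and 195 CPM, against 30.1 and 26.3 CPM elsewhere. Igfbp4 encodes a binding protein of insulin-like growth factors. Its level was 389 CPM in WT cells of cluster 4 but 40.2 CPM in TG cells of cluster 4, while other CD8αβ cells held 19.8 CPM in WT and 13.8 CPM in TG.

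**Figure D1:**
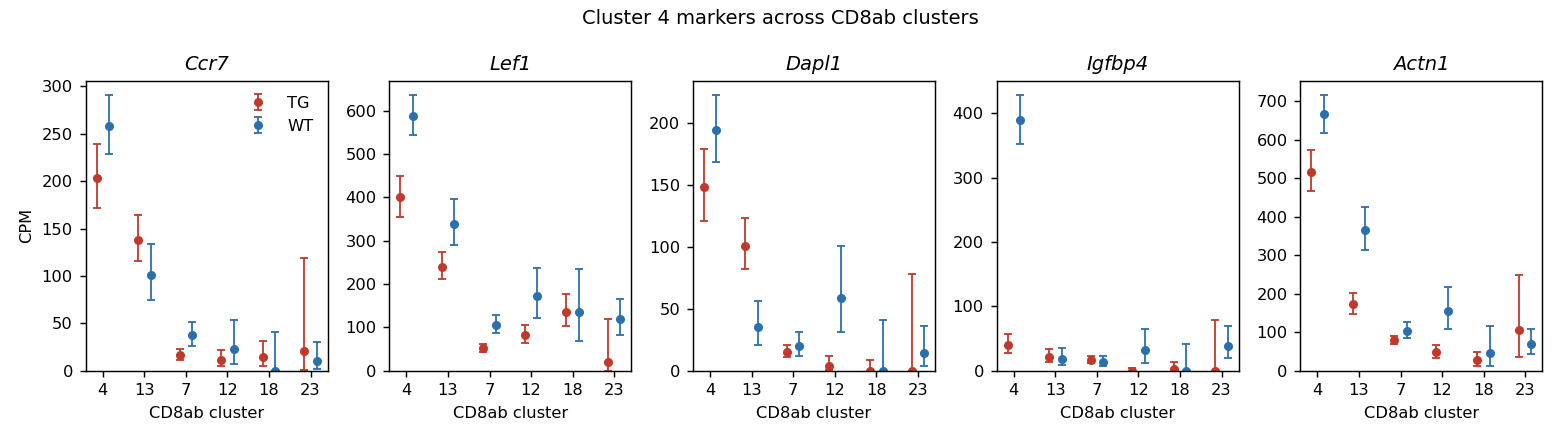
Level of the 5 markers (CPM, linear axis) in each of the 6 CD8αβ clusters for TG (red) and WT (blue), with points for the summed cells and bars for 95% Poisson intervals. Cluster 4 leads for Ccr7, Lef1, Dapl1 and Actn1 in both genotypes, while Igfbp4 is at 389 CPM in WT and 40.2 CPM in TG cells of cluster 4.

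Over 1508 genes with a mean of at least 100 CPM in both genotypes, 23 (1.53%) were at least 2-fold higher in cluster 4 than in other CD8αβ cells in both genotypes, and 94 (6.23%) were at least 2-fold lower. Besides Ccr7, Actn1 and Lef1, the highest ratios included Il7r, the IL-7 receptor chain that maintains resting T cells. Others were Il6ra, a chain of the IL-6 receptor, and Pik3ip1, a negative regulator of PI3 kinase. In the other CD8αβ cells Ccr7, Il6ra and Pik3ip1 stood under 100 CPM in both genotypes, and Actn1 did in TG. These passed there only through cluster 4 and had to be higher in it. Il7r was at 1001 CPM (TG) and 1174 CPM (WT) in cluster 4, against 332 and 464 CPM elsewhere. The lowest ratios were those of cell cycle genes and granzymes. Mki67, a marker of dividing cells, was at 11.1 CPM (TG) and 1.91 CPM (WT) in cluster 4, against 609 and 489 CPM elsewhere. Gzma, a granule protease of cytotoxic cells, was at 105 and 27.7 CPM, against 6080 and 1531 CPM elsewhere. Of 14 kept cell cycle genes, 13 were at least 2-fold lower in cluster 4 in each genotype. Genes such as Mki67 passed the floor only through the other CD8αβ cells and had to be lower in cluster 4, so nothing is read from this count. Of all genes, 9.95% in TG and 8.36% in WT were that much lower. Of 10 kept genes of naive T cells beyond the label's markers, 6 were at least 2-fold higher in each genotype. The share over all genes was 4.24% in TG and 1.92% in WT. Genes under the floor in the other CD8αβ cells passed only through cluster 4, so nothing is read from this count either. In either direction, 14.2% of all genes in TG and 10.3% in WT were past 2-fold. Without cluster 7, which holds many dividing cells, 6 genes were that much higher and 33 that much lower in both genotypes. The low cell cycle level was not particular to cluster 4: the list summed to 1503 CPM in TG and 1530.3 CPM in WT, against 1804 and 1750 CPM in cluster 13 and 9195 and 8485 CPM over all other CD8αβ cells.

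Surface CD44 and CD122 went against the label in TG. Whether antibody counts entered the clustering is not given in the sources used here, and cell types were named from proteins as well as transcripts, so protein levels are a description too. CD44 stood high on most TG cells of cluster 4 and low on most WT cells. The median CD44 antibody count was 105 in a TG cell and 14 in a WT cell, and the median normalised level, a centred ratio on the natural log scale, was 3.14 (quartiles 2.71 and 3.35) in TG and 1.31 (0.99 and 1.80) in WT. The quartile ranges did not overlap. Cluster 13, the CD8αβ cluster nearest in its marker levels, had CD44 medians of 3.35 in TG and 3.10 in WT. For this reason the cells are called here cluster 4, by their rule, and not by the label.

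CD122 was also higher on TG cells of cluster 4, with a median level of 1.37 (0.95 and 1.65) against 0.60 (0.40 and 0.80) in WT, and median antibody counts of 14 and 5. CD103 was lower, with a median of 0.16 (0.00 and 0.29) in TG and 1.03 (0.35 and 1.49) in WT, and antibody counts of 1 and 9. In TG the CD103 level of cluster 4 was close to the 0.18 of cluster 13, whereas in WT it stood above the 0.24 of cluster 13. CD49d, the α4 integrin chain encoded by Itga4 that rises on T cells after they meet antigen, had medians of 1.34 (0.95 and 1.64) in TG and 1.71 (1.42 and 1.98) in WT. On TG cells of clusters 7 and 12 the CD49d medians were 3.55 and 3.25. TG cells of cluster 4 therefore carried high CD44 and CD122 with low CD49d, a set of levels shared by TG cells of cluster 13, where the CD49d median was 1.26.

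**Figure D2:**
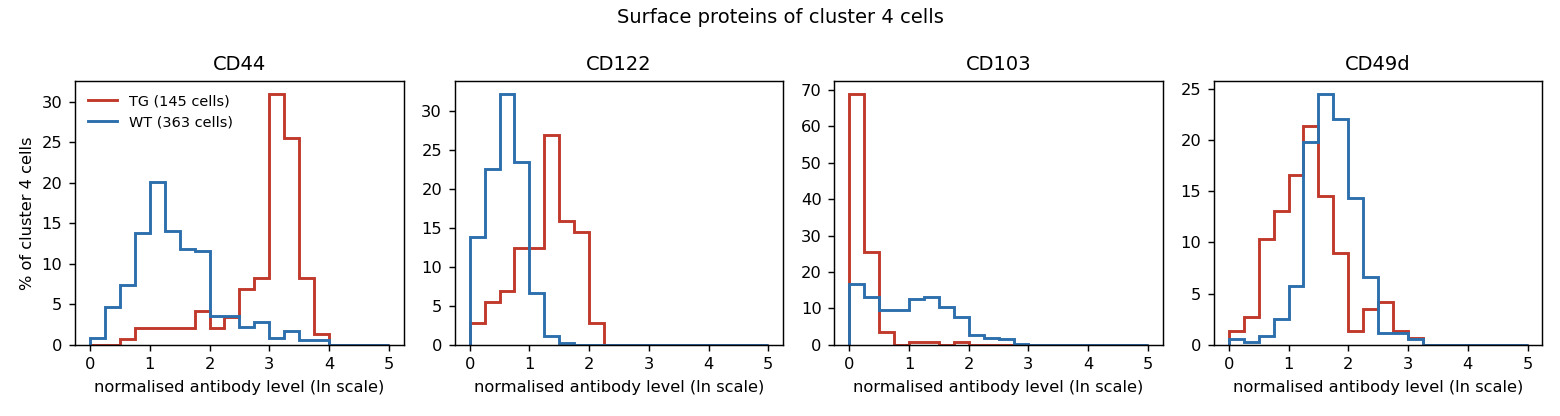
Share of cluster 4 cells (percent) by normalised antibody level (natural log scale, bins of 0.25) for CD44, CD122, CD103 and CD49d in TG (red, 145 cells) and WT (blue, 363 cells). TG cells crowd around the CD44 median of 3.14 and WT cells around 1.31, while CD103 is near 0 on most TG cells.

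Some other proteins of T cells had closer medians between genotypes. CD8β, which with CD8α forms the CD8αβ coreceptor, had medians of 1.94 in TG and 1.88 in WT, and CD5, a negative regulator of T cell receptor signals, had 3.19 and 3.22. T cell receptor β stood at 3.09 and 3.30. CD43, a sialylated mucin of leukocytes, was lower in TG at 2.31 against 2.79, and CD1d, which presents lipids, at 0.36 against 0.82. Of the 49 antibodies, 4 had cluster 4 medians more than 0.5 apart, namely CD44, CD122, CD103 and CD4, and 7 were more than 0.3 apart. The CD4 antibody gave 1.33 in TG and 0.58 in WT, and medians of 1.42 and 0.71 in cluster 13, while Cd4 transcripts were at 38.8 and 14.3 CPM and Cd8b1 transcripts at 1112 and 1242 CPM in cluster 4.

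Between TG and WT cells of cluster 4, most transcripts differed little and a small set differed by several fold. Of 1518 genes with a mean of at least 100 CPM, 24 (1.58%) were at least 2-fold higher in TG and 14 (0.922%) at least 2-fold lower, together 2.5%, and the median ratio was -0.08. The higher set held genes of memory T cells, the chemokine gene Ccl5, and 3 B cell and 1 myeloid marker genes. The lower set held Igfbp4, Itga4 and Foxo1.

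**Figure D3:**
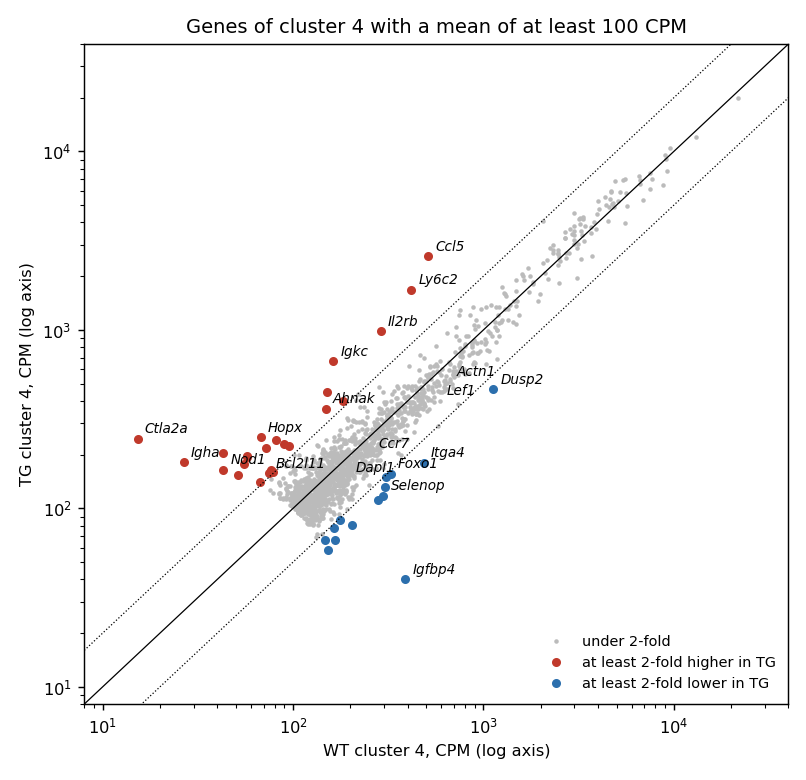
Level of each gene in TG against WT cells of cluster 4 (CPM, both axes logarithmic) for the 1518 genes with a mean of at least 100 CPM. The solid line marks equal levels and the dotted lines 2-fold; 24 genes lie above and 14 below the dotted lines, with Ctla2a and Igfbp4 farthest out.

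Ctla2a, which encodes an inhibitor of cathepsin-like proteases found in activated T cells, had the highest ratio among the 1518 genes past the floor of 100 CPM. The floor is on the mean of both genotypes, and Ctla2a, Igha, Nod1, Hopx, Lax1 and N4bp1 stood under it in WT and passed only through TG, as Igfbp4, Ssbp3, Rnf167 and Dtx1 passed only through WT, so the direction of these genes was fixed once they passed. It gave 177 UMIs in TG and 16 in WT, or 245 CPM (210.4 to 284) against 15.3 CPM (8.72 to 24.8), a ratio of 4.01 (3.27 to 4.84) and a 16.1-fold difference. A Ctla2a UMI was found in 49.7% of TG cells and 3.31% of WT cells, and in 22.1% and 1.93% after each cell was thinned to 1000 UMIs, with 0 cells left out. In mature B cells, which should lack it, the thinned shares were 0.562% in TG and 1.41% in WT, at median depths of 2923 and 2044.5 UMIs. The TG share therefore stood above that background and the WT share close to it.

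Some genes of memory and activated T cells were higher in TG. In the list of 24 such genes, 9 passed the floor, of which 3 were at least 2-fold higher and 0 at least 2-fold lower, where 1.58% of all genes were that much higher. Il2rb stood at 986 CPM (915 to 1061) in TG and 289 CPM (257 to 323) in WT, a ratio of 1.77 (1.58 to 1.97), in the same direction as CD122 on the surface. Ly6c2, a surface protein of memory CD8 T cells, stood at 1677 CPM and 418 CPM, a ratio of 2.01 (1.85 to 2.17). Ahnak, a large scaffold protein, stood at 362 CPM and 149 CPM, a ratio of 1.28 (0.99 to 1.58). The other 6 kept members lay between -0.50 and 0.21. With cells split at the limit of surface CD44 fitted to WT cells, Ahnak was at 0.63 under it and 0.72 at or over it. Ahnak was thus past 2-fold in neither class.

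With a floor of 50 CPM, 14 members were kept, and 2.31% of all genes were at least 2-fold higher, 1.34% that much lower and 3.65% either. The 5 members added, Cd44, Cxcr3, Eomes, Itgb1 and S100a6, stood under 50 CPM in WT and passed only through TG, so they had to be higher there and are given as values alone. Cd44 had 108 UMIs in TG and 28 in WT, a ratio of 2.49 (1.88 to 3.14), again in the direction of its protein. Cxcr3, a chemokine receptor that draws T cells to inflamed tissue, had 68 and 9 UMIs, a ratio of 3.46 (2.45 to 4.65). Eomes, a T-box transcription factor of memory CD8 T cells, had 97 and 46 UMIs, a ratio of 1.62 (1.09 to 2.15). Tbx21, the related factor T-bet, had only 29 and 13 UMIs, a ratio of 1.70 (0.71 to 2.76). Among cells at or over a surface CD44 level of 2.3, where most TG cells lay, Eomes turned to -0.12 and Tbx21 to -0.61. Itgb1 and S100a6, an integrin chain and a calcium-binding protein that rise with memory, had ratios of 1.69 (1.17 to 2.23) and 1.73 (1.17 to 2.31). Split at that CD44 level, Itgb1 was at 1.83 in CD44-low and 0.45 in CD44-high cells, and S100a6 at 0.27 and 1.99. With only 24 TG cells in the CD44-low class, the CD44-low ratios of Itgb1 and S100a6 rest on few UMIs.

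Among genes for effector molecules, the chemokine Ccl5 stood at 2586 CPM (2470 to 2706) in TG and 511 CPM (469 to 556) in WT, a ratio of 2.34 (2.20 to 2.48). Ccl5 UMIs were also found in B cells, which should lack them. After thinning, the gene was found in 57.9% of TG and 22.3% of WT cells of cluster 4, and in 24.9% of TG and 24.6% of WT B cells. The WT share thus lay at the background, and the TG share above it. Gzmm, a granzyme under the floor of 100 CPM, had 110 UMIs in TG and 2 in WT, a ratio of 6.32 (4.43 to 9.38). Without thinning, a Gzmm UMI was found in 36.6% of TG and 0.551% of WT cells, at median depths of 4961 and 2764 UMIs. Ccl4, a second chemokine, and Ifng, the cytokine interferon-γ, had ratios of 2.56 (1.85 to 3.32) and 1.89 (1.15 to 2.67), both from under 100 UMIs in either genotype. Split at that CD44 level, Ccl4 was at 0.13 in CD44-low and 1.71 in CD44-high cells, and Ifng at 2.75 and 0.01. Only 24 TG cells were CD44-low, so the CD44-low ratios of Ccl4 and Ifng rest on few UMIs and their sizes are not read. Nkg7, a granule protein, passed the floor with 697 CPM against 485 CPM, a ratio of 0.52 (0.34 to 0.70). Other CD8αβ cells of TG held more Gzma and Ccl5, at 6080 and 11259 CPM, but about as much Gzmm, at 161 CPM against 152 CPM in cluster 4.

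The highest ratios by size also included Hopx, a homeodomain protein of differentiated T cells (1.89, 1.49 to 2.31), Nod1, an intracellular sensor of bacterial cell walls (1.94, 1.44 to 2.47), Lax1, an adaptor that dampens antigen receptor signals (1.77, 1.33 to 2.23), and N4bp1 (1.76, 1.31 to 2.22). Split at a surface CD44 level of 2.3, Hopx was at 0.94 in CD44-low and 0.74 in CD44-high cells, past 2-fold in neither. N4bp1 was at 1.07 and 0.84, while Nod1 and Lax1 stayed past 2-fold in both classes. Of the 10 genes with the highest ratios, 2 (Igkc and Igha) encode antibody chains. Igkc stood at 666 CPM (TG) and 162 CPM (WT) in cluster 4 and a UMI was found in 95.9% and 26.7% of the cells. In mature B cells it was at 11739 and 10317 CPM. The part of such RNA in the other results was not tested. Without cells that carried markers of another lineage, the ratios of Ctla2a, Ccl5, Ly6c2 and Il2rb were 4.43, 2.52, 2.05 and 1.86. Igkc and Igha were still at 2.09 and 2.72 then. Leaving these cells out thus did not remove such RNA, and it cannot show the part of that RNA.

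Igfbp4 had the lowest ratio among the 1518 genes past the floor of 100 CPM. It gave 29 UMIs in TG and 408 in WT, or 40.2 CPM (26.9 to 57.7) against 389 CPM (352 to 429), a ratio of -3.28 (-3.87 to -2.73), which is a 9.68-fold difference. An Igfbp4 UMI was found in 16 of 145 TG cells and in 47.1% of WT cells, against 0.281% of TG and 2.61% of WT B cells. After thinning, the shares in cluster 4 were 1.38% and 27.0%. The ratio was also below 0 in CD4 T cells of cluster 6 (-1.21) and in mature B cells (-4.51, from 3 and 73 UMIs). The gene lies on chromosome 11 from 99041244 to 99054392 (GRCm38, plus strand). Of the other markers of the label, Lef1 had a ratio of -0.56 (-0.76 to -0.35), Dapl1 -0.39 (-0.74 to -0.05), Actn1 -0.37 (-0.55 to -0.18) and Ccr7 -0.34 (-0.64 to -0.05). All 5 were lower in TG, 4 of them by less than 2-fold, as were 913 of the 1518 genes kept. Apart from Igfbp4 and Lef1 the direction turned when cells were split into CD44-low and CD44-high at a surface CD44 level of 2.3, the limit fitted to WT cells, with Actn1 at 0.13 and Dapl1 at 0.31 in CD44-low cells and Ccr7 at 0.58 and Actn1 at 0.03 in CD44-high cells.

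Of 18 further genes of naive T cells, 14 passed the floor, 1 was at least 2-fold lower and 0 at least 2-fold higher, where 0.922% of all genes were that much lower. Their median was -0.27. The member past 2-fold was Foxo1, a transcription factor of resting T cells, at 157 CPM (TG) and 325 CPM (WT), a ratio of -1.05 (-1.37 to -0.74). By the WT limit it was at -0.39 among CD44-low and -1.36 among CD44-high cells, so it was not past 2-fold in the former. Bach2, a repressor that holds T cells in the naive state, followed at -0.98 (-1.46 to -0.52). Tcf7, the partner of Lef1, was at 924 and 831 CPM, a ratio of 0.15 (0.00 to 0.30), and Il7r at -0.23 (-0.36 to -0.10). Klf2, which drives expression of the exit receptor S1pr1, was higher in TG at 1039 against 722 CPM (0.53, 0.38 to 0.67), while S1pr1 itself had a ratio of -0.31 (-0.63 to 0.01).

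Ccr9 and Sox4, both below the floor, had fewer UMIs in TG. Ccr9, the receptor for the gut and thymus chemokine CCL25, had 11 UMIs in TG and 169 in WT, a ratio of -3.40 (-4.43 to -2.53). Sox4, a transcription factor of early T cells, had 5 and 60 UMIs, a ratio of -3.05 (-4.72 to -1.74). A Ccr9 UMI was found in 4.14% of TG and 29.8% of WT cells. Among CD44-low cells by the WT limit neither was past 2-fold, with Ccr9 at -0.96 and Sox4 at -0.99. Among CD44-high cells they were at -5.25 and -4.54. The 11 and 5 TG UMIs were spread over both classes, so these class ratios rest on few UMIs and their sizes are not read.

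Itga4 had the second lowest ratio past that floor among the genes named by size, at 180.1 CPM (150.4 to 214) in TG and 485 CPM (444 to 529) in WT, or -1.43 (-1.72 to -1.15). This is the direction of its protein CD49d on the same cells. By the WT limit of surface CD44, Itga4 was at -0.44 among CD44-low cells, not past 2-fold, and at -1.31 among CD44-high cells. Dusp2, a phosphatase that acts on MAP kinases, stood at 467 CPM (418 to 519) and 1122 CPM (1059 to 1188), a ratio of -1.27 (-1.44 to -1.09). Other genes in the lowest 10 were Selenop, which encodes a selenium carrier (-1.34, -1.71 to -0.99), and Dtx1, a regulator of Notch signals (-1.33, -1.82 to -0.86). Ssbp3 (-1.39, -1.92 to -0.89), Rnf167 (-1.34, -1.79 to -0.92) and Gramd1a (-1.33, -1.70 to -0.97) were also among them. In CD44-low and CD44-high cells by the WT limit, Dtx1 was at -0.60 and -0.65, past 2-fold in neither, and Selenop at -0.46 and -1.13. Rnf167 and Gramd1a stayed past 2-fold in both classes.

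The 250 bases before the RefSeq start of 3 of the genes farthest apart between genotypes were read from the GRCm38.p6 promoter table, to show the sequence that precedes genes that differed within 1 cluster. Capitals mark the T-box half-site GGTGTGA (reverse complement TCACACC), the short motif bound by Eomes and T-bet. Igfbp4 is at chr11:99040994-99041243 on the plus strand, Itga4 at chr2:79255176-79255425 on the plus strand and Ctla2a at chr13:60936626-60936875 on the minus strand.
Igfbp4: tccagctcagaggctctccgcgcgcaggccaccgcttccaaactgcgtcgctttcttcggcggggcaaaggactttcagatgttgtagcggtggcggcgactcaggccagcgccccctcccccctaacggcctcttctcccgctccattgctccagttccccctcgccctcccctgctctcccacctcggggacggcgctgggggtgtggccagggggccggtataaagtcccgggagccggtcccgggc
Itga4: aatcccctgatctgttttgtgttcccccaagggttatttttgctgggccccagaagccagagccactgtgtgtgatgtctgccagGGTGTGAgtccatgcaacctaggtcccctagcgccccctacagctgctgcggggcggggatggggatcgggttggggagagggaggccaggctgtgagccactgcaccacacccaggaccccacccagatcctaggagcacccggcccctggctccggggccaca
Ctla2a: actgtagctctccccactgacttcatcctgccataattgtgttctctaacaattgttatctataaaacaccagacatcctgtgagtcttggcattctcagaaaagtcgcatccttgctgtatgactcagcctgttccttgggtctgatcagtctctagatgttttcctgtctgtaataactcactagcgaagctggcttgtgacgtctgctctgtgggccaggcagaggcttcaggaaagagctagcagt
Itga4, lower in TG, held 1 half-site, and the Ctla2a and Igfbp4 sequences held 0. The TCF/LEF core CTTTGA (reverse complement TCAAAG) was in 0 of the 3. Over all 32851 promoter windows of 300 bases in that table, 3.98% held the T-box half-site and 16.0% the TCF/LEF core on either strand. These matches describe letters only.

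The TGF-β pathway is the one on which the transgene acts. Of 15 pathway genes and targets, 3 passed the floor and none of these was past 2-fold, where 2.5% of all genes were. The median of kept members, -0.77, was -0.26 under and -0.94 at or over the WT limit of surface CD44. Tgfbr2 stood at 181 CPM (152 to 215) in TG and 184 CPM (159 to 212) in WT cells of cluster 4, a ratio of -0.02 (-0.35 to 0.31). In the other CD8αβ cells it stood at 314 and 137 CPM, a ratio of 1.19 (1.01 to 1.38). Whether transcripts of the human transgene were counted under the mouse gene is not given in the sources used here. Smad7, an inhibitor of the pathway that TGF-β itself induces, stood at 168 and 298 CPM, a ratio of -0.83 (-1.15 to -0.53).

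With a floor of 50 CPM, 8 pathway genes were kept, of which 7 were lower and 1 higher in TG, with a median of -0.68. Of all 2990 genes at that floor, 1734 were lower, with a median of -0.07. None of the 8 was at least 2-fold lower, where 1.34% of all genes at that floor were. The 1 past 2-fold was Smad3, which passed that floor only through TG and so had to be higher there, where 2.31% of all genes were. Itgae, Pmepa1, Tgfbr3 and Tgfb1 stood under the floor of 50 CPM and are not among these 8. Itgae had 3 UMIs in TG and 96 in WT, a ratio of -4.46 (-6.76 to -2.87), in the direction of CD103 on the surface. Pmepa1, a feedback inhibitor, had 6 and 37 UMIs (-2.09, -3.62 to -0.83), and Tgfbr3, a coreceptor, had 6 and 40 UMIs (-2.20, -3.73 to -0.95). Among CD44-low cells by the WT limit of surface CD44, Itgae was at -1.89, Pmepa1 at -1.92 and Tgfbr3 at -0.13. Among CD44-high cells they were at -5.54, -2.35 and -3.08. With 3, 6 and 6 TG UMIs over both classes, these class ratios rest on very few UMIs, and their sizes are not read. Cxcr6, a chemokine receptor of liver-resident T cells that is not in the pathway list, had 11 and 63 UMIs (-1.98, -3.05 to -1.04). In the other direction, the ligand Tgfb1 had 36 and 14 UMIs, or 49.9 and 13.3 CPM. The signal carrier Smad3 had 59 and 27 UMIs (1.67, 0.99 to 2.38). Smad3 turned to -1.36 among CD44-low cells by the WT limit and was at 1.19 among CD44-high cells. Only 24 TG cells were CD44-low, so this turn rests on few UMIs.

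Several groups had no member past 2-fold between TG and WT cells of cluster 4. Over all genes kept 2.5% were, a share at which few or none would be counted in groups of this size. None of 20 kept genes of the T cell receptor complex and its signalling was past 2-fold, and their median was -0.17. The same held for 17 genes of MHC class I and the immunoproteasome (median 0.11) and for 12 genes of quiescence (median -0.21). The MHC class I median was 0.34 under and -0.14 at or over the WT limit of surface CD44. Of 44 interferon-stimulated genes, 13 passed the floor, 4 were higher and 9 lower in TG, where 913 of all 1518 genes kept were lower. None of the 13 was past 2-fold, and their median was -0.25. That median was 0.45 under and -0.71 at or over the WT limit of surface CD44. In CD4 T cells of cluster 6, which number 58 in TG and 397 in WT, the median of the same interferon-stimulated genes was 0.67.

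CD44 protein split cluster 4, and the split fell differently in the genotypes. A limit of 2.3 was fitted to WT CD8αβ cells as the point between the low and high CD44 distributions. At or over it lay 121 of 145 TG cells, or 83.4% (76.4 to 89.1), and 41 of 363 WT cells, or 11.3% (8.23 to 15.01). Within 0.25 of the limit lay 7 TG and 23 WT cells, so the classes are ranges of 1 level and not cell types. Fitted to TG cells alone the limit was 2.6, with 114 TG cells, or 78.6%, at or over it, but the lower fitted peak stood at 2.62, so this limit does not lie between 2 peaks and the WT limit was used here. Under the WT limit, the cells of cluster 4 were 2.35% of TG and 39.3% of WT CD8αβ T cells.

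Within WT, CD44-high cells of cluster 4 had more of the memory genes than CD44-low cells. Ly6c2 stood at 1275 CPM in CD44-high and 281 CPM in CD44-low WT cells, Il2rb at 728 and 219 CPM and Ccl5 at 1628 and 333 CPM. Igfbp4 was lower in CD44-high WT cells, at 125 against 431 CPM. Among CD44-high cells alone, the ratio of TG over WT was 0.60 (0.30 to 0.91) for Il2rb, 0.52 (0.29 to 0.75) for Ly6c2 and 0.79 (0.59 to 0.99) for Ccl5. Among CD44-low cells it was 0.58 (0.02 to 1.09) for Il2rb, 1.62 (1.26 to 1.96) for Ly6c2 and 1.97 (1.67 to 2.26) for Ccl5. In both classes these were below the ratios over all cells of cluster 4, and Ly6c2 and Ccl5 stayed past 2-fold among CD44-low cells. The classes were not matched for CD44 itself, whose median level was 1.69 on TG and 1.22 on WT CD44-low cells. On CD44-high cells it was 3.21 and 2.83, so ratios within a class do not compare cells of equal CD44.

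Ctla2a and Igfbp4 were past 2-fold in both CD44 classes, by less than over all cells of cluster 4. Ctla2a had ratios of 2.73 (1.58 to 4.20) among CD44-high and 2.71 (1.17 to 4.21) among CD44-low cells. Igfbp4 had -2.17 (-3.21 to -1.13) and -1.99 (-2.95 to -1.17), and Dusp2 -1.27 (-1.56 to -0.97) and -0.96 (-1.35 to -0.60). Smad7 had -0.97 (-1.47 to -0.44) and -0.93 (-1.73 to -0.22). Dusp2 stood at 1074 CPM in CD44-high and 1130 CPM in CD44-low WT cells, and at 446 and 580 CPM in TG cells. Only 24 TG cells with 110350 UMIs were CD44-low, and only 41 WT cells with 144325 UMIs were CD44-high, so the intervals are wide.

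**Figure D4:**
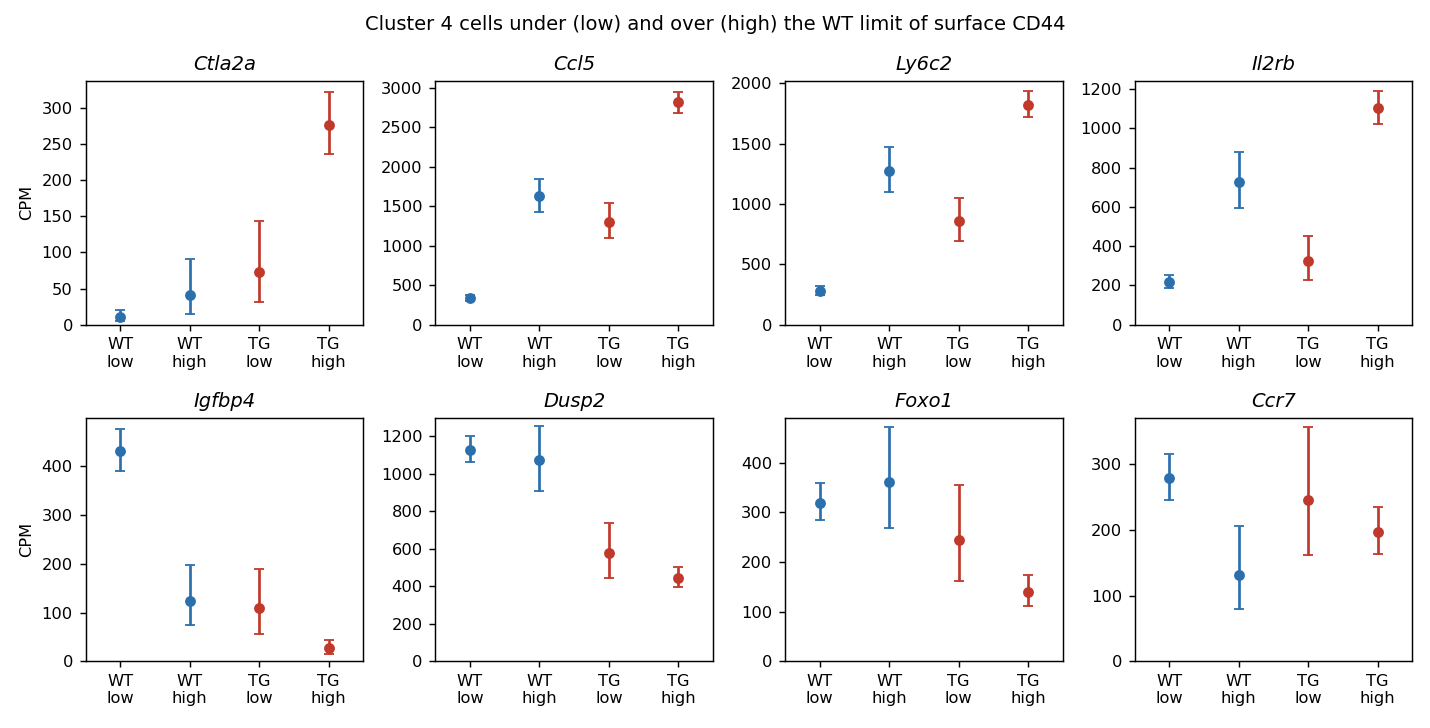
Level (CPM, linear axes from 0) of 8 genes in cluster 4 cells under (low) and at or over (high) the WT limit of surface CD44, for WT (blue) and TG (red), with 95% Poisson intervals. Il2rb, Ly6c2 and Ccl5 follow the CD44 class in both genotypes, whereas Dusp2 is at 1130 and 1074 CPM in the WT classes and at 580 and 446 CPM in the TG classes.

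The surface proteins showed the same in part. CD103 was low on TG cells of both CD44 classes, with medians of 0.19 on CD44-low and 0.16 on CD44-high cells, and in WT it was 1.14 on CD44-low and 0.32 on CD44-high cells. CD122 was 1.45 on TG CD44-high cells but 0.72 on WT CD44-high cells, and on CD44-low cells it was 0.56 and 0.60. CD49d was 1.25 on TG CD44-high cells and between 1.71 and 1.73 on the other classes.

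Some ratios of TG over WT in cluster 4 were far from those of other CD8αβ T cells and others were nearer. Il2rb, at 1.77 in cluster 4, had -0.31 (-0.39 to -0.24) in the other CD8αβ clusters together, and Ctla2a, at 4.01, had 0.04 (-0.16 to 0.25). Cd44, at 2.49, had -0.19 (-0.35 to -0.04). In cluster 13 the same genes had ratios of 0.26, 1.14 and 0.09. Itga4, at -1.43 in cluster 4, had -2.92 in cluster 13 and 0.19 (0.09 to 0.29) over the other clusters. Nod1, at 1.94 in cluster 4, had 1.16 over the other clusters, 1.08 in CD4 T cells of cluster 6 and 1.01 in mature B cells. N4bp1 had 1.39 and Igkc 2.10 in cluster 13, and Dusp2 was below 0 in each of these sets, between -0.91 and -0.40. In CD4 T cells of cluster 6, Il2rb had 2.67, Ly6c2 2.82, Hopx 2.10 and Igha 3.28, so these ratios were not particular to cluster 4. These differences between cell sets were not tested, since each rests on 1 library per genotype.

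**Figure D5:**
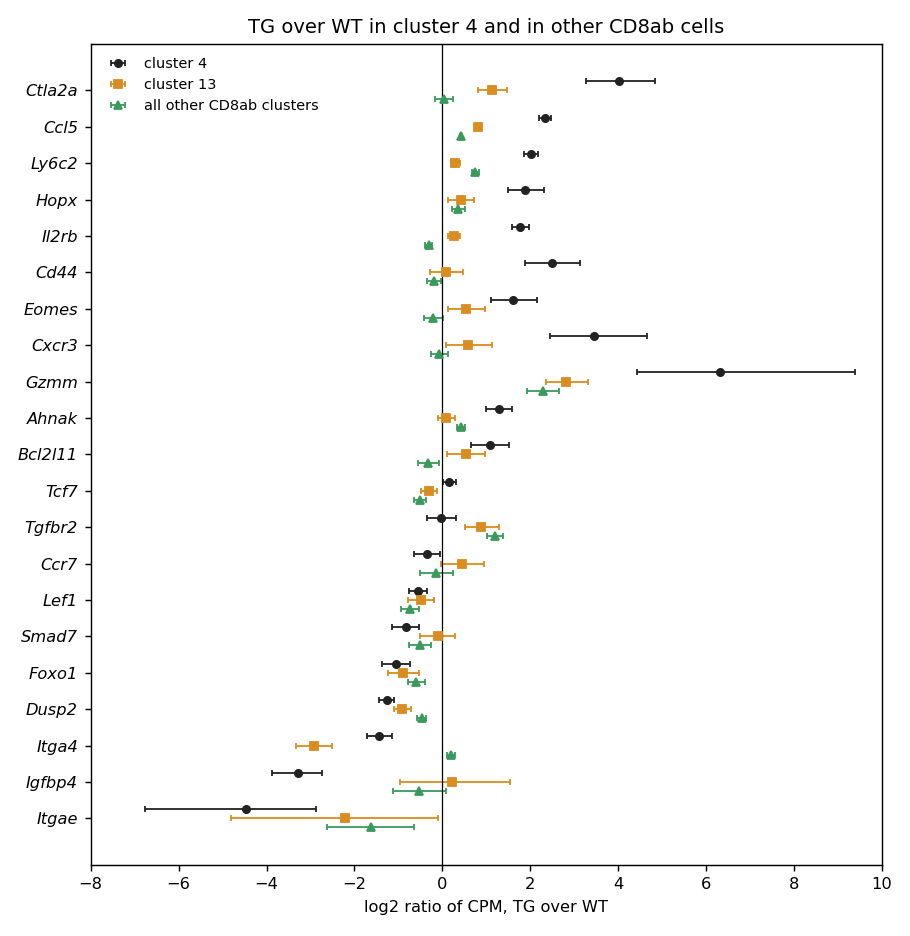
Log2 ratio of CPM, TG over WT, for 21 genes in cluster 4 (black circles), cluster 13 (orange squares) and all other CD8αβ clusters together, cluster 13 included (green triangles), with 95% intervals of counting error. Il2rb is at 1.77 in cluster 4 against 0.26 in cluster 13 and -0.31 over the other clusters, and Igfbp4 at -3.28 against 0.22 and -0.53.

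Fewer genes were past 2-fold between cluster 4 and cluster 13 in TG than in WT, and this difference was not tested. Of 1387 genes with a mean over clusters 4 and 13 of at least 100 CPM in each genotype, 13 (0.937%) differed by at least 2-fold in TG. Of these, 5 (0.36%) were higher and 8 (0.577%) lower in cluster 4. In WT 32 (2.31%) differed, 8 (0.577%) higher and 24 (1.73%) lower in cluster 4. Cluster 13 held 968903 UMIs in TG and 483559 in WT, and the part of depth in these counts was not tested. In WT the ratio of cluster 4 over cluster 13 was -3.67 for Ctla2a, -2.47 for Ly6c2 and -2.13 for Il2rb, with levels of 15.3 against 194 CPM for Ctla2a. In TG the same ratios were -0.80, -0.75 and -0.62. Actn1 separated the clusters in TG, at 517 against 173 CPM, and Dapl1 did so in WT, at 195 against 35.2 CPM. In WT, Ctla2a stood under 100 CPM in cluster 4 and Dapl1 in cluster 13, so the direction of such genes was fixed by the floor. Before the libraries were joined, a coarser clustering placed all 145 TG cells of cluster 4 and all 177 TG cells of cluster 13 in 1 cluster. It placed 361 of 363 WT cells of cluster 4 with 126 of 138 WT cells of cluster 13 in another. A coarser setting can by itself place neighbouring clusters together, and its part was not tested. A finer joined clustering kept 142 TG and 346 WT cells of cluster 4 together.

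RNA of B, myeloid and NK cells was at a higher level in TG cells of cluster 4, and that of some other cells in WT. At least 2 UMIs of another lineage's markers were found in 32 of 145 TG cells (22.1%) and 16 of 363 WT cells (4.41%), at median depths of 4961 and 2764 UMIs. B cell markers accounted for 18 TG and 2 WT cells and myeloid markers for 12 and 10. The 13 B cell markers summed to 1874 CPM (TG) and 799 CPM (WT), of which Igkc made up 666 and 162 CPM. Cd79a gave 47 and 12 UMIs, whereas Ighm gave 178 and 284 and Cd79b 7 and 18, and none of the 13 was at 0. The 13 myeloid markers summed to 609 and 274 CPM, with C1qa, C1qb and Adgre1 at 0 in WT and C1qa, C1qb and C1qc at 0 in TG. The 6 NK cell markers summed to 60.9 and 18.1 CPM, with Ncr1 at 2 UMIs in each genotype and Klra4 at 0 in WT. Markers of NKT and γδ T cells summed to 24.9 and 76.3 CPM, and those of erythroid cells and platelets to 0 and 475 CPM. In WT the erythroid and platelet markers summed to 0 CPM in cluster 13 and 37.2 CPM over all other CD8αβ cells. Their level in cluster 4 was thus not common to WT CD8αβ cells. Scrublet marked 0 cells of cluster 4 as doublets in either genotype.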

How the data were processed

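Liver CD45+ cells of each pool were captured on the BD Rhapsody system. The authors aligned reads to mm10 with STAR in the BD Rhapsody pipeline and deposited UMI counts of 13528 genes and 49 antibodies for 11929 filtered cells; the filter on cells was not given in the sources used here. In the deposited counts a gene found in few cells of a genotype is set to 0 there. The deposited normalised antibody values are centred ratios on the natural log scale. The authors gave the mitochondrial share of each cell as a percent and took clusters after joining the libraries by canonical correlation in Seurat.

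Here the UMIs of each cell set were added up within a genotype. CPM carry exact Poisson intervals, ratios exact conditional binomial intervals, and shares Clopper-Pearson and Newcombe intervals, at 95%. No test was possible with 1 library per genotype, and "called" means at least 2-fold apart. Genes needed a mean of 100 CPM. A count of 0 took a pseudocount of 0.5 UMIs, and a share of 0 allows 3 counts. Cells were thinned to 1000 UMIs for shares. The CD44 limit came from a mixture of 2 normal distributions.

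The genes named are those of 27 gene lists and those named by size. The latter have the 10 highest and 10 lowest ratios of TG over WT, and of cluster 4 over other CD8αβ cells. For TG over WT they needed at least 10 UMIs in the higher profile, at most 50% of its UMIs in 3 cells and a direction held under every scaling. For cluster 4 over other CD8αβ cells, these conditions were not set, and the within-genotype ratio smaller in size gave the order. Receptor and immunoglobulin V, D and J segments, sex genes and ribosomal, mitochondrial and unnamed Gm and Rik genes were left out of both rankings. An item this rule named is not reported here. Members and lists were chosen with earlier results of these data known. Doublets were called with Scrublet (scanpy 1.11.5, expected rate 5%), which marked 0.839% of TG and 3.31% of WT cells of the whole table, and were kept. Alternatives were TMM factors (edgeR 4.0.16, R 4.3.3), other totals, floors, denominators and cell sets. Calculations ran in Python 3.11.15 (scipy 1.17.1, numpy 2.4.6, scikit-learn 1.9.0, pandas 2.3.3) and were tested on simulated data. Gene positions are those of GENCODE on GRCm38, and promoter sequences are from RefSeq (GRCm38.p6). Cells of the pools without a genotype name were not used.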

Additional observations from a re-analysis of the deposited data

Results flagged for a closer look

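For 8 named genes that were at least 2-fold apart in cluster 4, the ratio of TG over WT there and that over the other CD8αβ clusters together had opposite signs, with both intervals of counting error clear of 0. None of these differences was tested, since each genotype had 1 library. Il2rb had 1.77 in cluster 4 and -0.31 elsewhere, and Cd44 had 2.49 and -0.19. Among chemokines, Ccl4 had 2.56 and -0.36, and Xcl1 had 2.92 and -0.76 from only 26 and 5 UMIs in cluster 4. Bcl2l11, which encodes the death-promoting protein Bim, had 1.09 and -0.32. The integrin gene Itga4 went the other way, with -1.43 in cluster 4 and 0.19 elsewhere. In cluster 13, which is among the clusters pooled as elsewhere, Itga4 had -2.92, so its lower level in TG was not particular to cluster 4. The antibody chain genes Igkc and Igha, which T cells do not make, had 2.04 and 2.76 in cluster 4 and -1.82 and -2.63 elsewhere. In cluster 13 alone Igkc and Igha had 2.10 and 2.37, so their higher level in TG was not particular to cluster 4.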

How the results depend on the processing

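No paired analysis was possible because each genotype had 1 library, and for the same reason no replicate could be left out. Depth limits the genes under about 100 UMIs, and the intervals leave out mice and captures. The share difference of -30.1 points was -25.7 with CD8αα cells in the denominator, -1.90 of all T cells, -1.86 of all cells, -35.0 without cells carrying other lineages' markers and -36.3 for CD44-low cells by each genotype's limit. By the WT limit, an alternative chosen after seeing the data, as are all results by that limit, it was -37.0. The 24 genes at least 2-fold higher became 52 with totals without ribosomal and mitochondrial genes, 69 and 7 with floors of 50 and 200 CPM, 1499 with no floor and 39 under the WT CD44 limit. The 14 lower genes became 43 after thinning, 40 and 7 with those floors, 1877 with none, and 33 under and 48 at or over the WT limit. The smaller totals without ribosomal and mitochondrial genes raise every CPM, so more genes can pass the floor of 100 CPM. The median ratio over all genes moved by only 0.048 with these totals. Against other CD8αβ clusters, the 23 higher genes became 47 with TMM factors and 6 without cluster 7, and the 94 lower genes became 33 without cluster 7.

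The median of the 5 markers (-0.39) was -0.13 in CD44-low cells, -0.12 under and -0.0095 at or over the WT limit, and that of other naive genes (-0.27) was 0.11 at or over it. The memory median (-0.11) was 0.79 with TMM factors, 1.33 with totals without ribosomal and mitochondrial genes and 0.41 thinned. It was 1.45, 1.28 and 1.63 with floors of 50, 200 and none, and 0.45 at or over the WT limit. Over all cells of cluster 4 its kept members lay either at most at 0.21 or at least at 1.28, so the set kept decides it there. At or over the WT limit members themselves also moved, with Il2rb at 0.60, Ly6c2 at 0.52 and Ahnak at 0.72. The interferon-stimulated median (-0.25) was 0.39 in CD44-low cells, 0.45 under and -0.71 at or over the WT limit. Eomes (-0.12) and Tbx21 (-0.61) turned at or over the WT limit. Smad3 turned in CD44-low cells (-0.72) and under the WT limit (-1.36), and Xcl1 in CD44-low cells (-0.13, with 0 UMIs in TG). Few TG cells were CD44-low, so the turns of Smad3 and Xcl1 rest on few UMIs. The cause of these turns was not tested. Of 46 named genes past 2-fold, the others kept their direction in every setting run on single genes, while only 26 of the 46 stayed past 2-fold in CD44-low cells, 28 under the WT limit and 31 at or over it.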

Other observations

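Single genes of the BCL-2 family differed in level between TG and WT cells of cluster 4. Bcl2, which protects resting T cells, had a ratio of 0.72 (0.46 to 0.98), Bcl2l11 had 1.09 (0.66 to 1.52), and Bbc3, which encodes the death-promoting protein Puma, had 1.47 (0.82 to 2.14) from 59 and 31 UMIs. Of 15 genes of the BCL-2 family, 4 passed the floor of 100 CPM, 1 was at least 2-fold higher and 0 at least 2-fold lower, where 1.58% and 0.922% of all genes were. The 1 was Bcl2l11, which passed that floor only through TG and so had to be higher there. Under the WT limit of surface CD44, Bcl2 was at 0.11, Bcl2l11 at 0.20 and Bbc3 at 1.32, and at or over it they were at 0.92, 0.82 and 0.62. Il4ra, a chain of the IL-4 receptor, had a ratio of 0.93 (0.50 to 1.37). Il6st, the signalling chain shared by IL-6 receptors, had -1.68 (-2.44 to -0.99). Under and at or over the WT limit, Il4ra was at 0.80 and 0.19, and Il6st at -1.79 and -1.61. Only 24 TG cells lay under that limit, so the ratios of Bbc3 and Il6st there rest on few UMIs.

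Receptor β segments were too thinly covered to describe the repertoire, with 57 UMIs in TG and 41 in WT cells of cluster 4, in which 15 and 14 of 17 segments were found. The haemoglobin gene Hba-a1 had 180 UMIs in WT cells of cluster 4 and 0 in TG cells.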
